A study of Mus musculus with 12 samples.

Results

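The accessible regions described here are the ATAC-seq peaks assigned to genes of the mouse major histocompatibility complex (MHC) and of antigen presentation. They are the rows of an annotated peak-list whose gene name begins with H2- or is B2m, Tap1, Tap2, Tapbp, Ciita, Cd74 or Nlrc5, and they number 121 of the 84243 peaks, under 41 gene names. Class I genes hold 51 of these peaks under 24 names and class II genes hold 43 under 10 names. The class II partners Ciita and Cd74 hold 15, the class I partners B2m, Tap2, Tapbp and Nlrc5 hold 11, and Tap1 holds 0. The remaining peak belongs to H2-Ke6, which carries the H2 prefix by position in the complex and encodes a dehydrogenase, not an MHC chain.

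ATAC-seq uses a transposase that inserts adapters into exposed DNA, so that reads accumulate where chromatin is open. Cells were sorted from wild-type C57BL/6 mice aged 8 to 12 weeks, without treatment, and each of 6 cell types was represented by 2 replicates, giving 12 samples. Bone marrow supplied B cells, granulocyte/macrophages (GMs), erythroid progenitors (EPs), megakaryocyte progenitors (MkPs) and hematopoietic stem cells (HSCs), while the thymus supplied T cells. The peaks of all cell types had been merged by the authors into 1 list before deposit. All peaks have the same width, and each carries a position on mm10 (GRCm38), a nearest gene and a distance to its transcription start site (TSS), and its score is 0. The cell type of origin of a peak is not recorded, nor are its reads. Whether a peak below was open in B cells, in HSCs or in all cells cannot be told apart, the depth is unknown, the cell type labels could not be checked against markers, and the values are counts and positions with no replicate error and no test.

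MHC class I molecules are made of a heavy chain and the small subunit encoded by B2m, and they display peptides from the cytosol that the transporter Tap1/Tap2 brings into the endoplasmic reticulum and that tapasin (Tapbp) helps to load. Nearly all nucleated cells carry them, and Nlrc5 is the coactivator of their genes. MHC class II molecules are alpha and beta chain pairs that display peptides from endosomes, mainly on B cells, dendritic cells and macrophages. The invariant chain Cd74 guards their groove, H2-DM exchanges peptides, H2-O restrains H2-DM, and Ciita is the coactivator that class II genes require. Promoters of class II genes are known for an X box followed by a Y box, which are bound by the RFX complex and by NF-Y, and classical class I promoters for a kappa B type element.

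The promoters of this kind set the first comparison between the classes, so the sequences are shown here. RefSeq (GRCm38.p6) promoters, 250 bases before to 50 bases after a TSS, were matched to 35 member genes. The X box was searched on both strands as CCTAGNNAC, and the Y core as ATTGG, which is contained in the longer Y box CTGATTGG and overlaps no X box. An X box was paired with a Y core on the same strand when 20 to 40 bases lay between them. The 200 bases before the TSS are printed 5′ to 3′ on the strand of the gene, with the paired X box and Y core in capitals. The first pair of genes carried an exact X box and the next 3 an X box with 1 mismatch.
H2-DMb1 (chr17:34152991-34153190, plus strand): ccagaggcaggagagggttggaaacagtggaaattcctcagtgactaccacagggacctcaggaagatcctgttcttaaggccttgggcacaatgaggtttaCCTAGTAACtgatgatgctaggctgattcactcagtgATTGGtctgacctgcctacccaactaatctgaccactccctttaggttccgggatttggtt
H2-Ob (chr17:34238705-34238904, plus strand): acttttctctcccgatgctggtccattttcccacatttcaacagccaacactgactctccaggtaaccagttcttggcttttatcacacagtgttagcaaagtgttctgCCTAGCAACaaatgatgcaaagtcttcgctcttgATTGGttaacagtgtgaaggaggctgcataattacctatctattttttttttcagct
H2-DMb2 (chr17:34145049-34145248, plus strand): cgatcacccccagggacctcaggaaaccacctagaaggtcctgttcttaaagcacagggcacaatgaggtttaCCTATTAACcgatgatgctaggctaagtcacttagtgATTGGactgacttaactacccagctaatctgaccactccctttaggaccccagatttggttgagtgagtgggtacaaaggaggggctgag
H2-Eb1 (chr17:34305667-34305866, plus strand): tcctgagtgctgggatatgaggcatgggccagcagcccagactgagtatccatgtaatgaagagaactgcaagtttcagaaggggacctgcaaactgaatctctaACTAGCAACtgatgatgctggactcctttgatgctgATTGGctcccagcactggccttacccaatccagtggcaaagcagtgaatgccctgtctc
H2-Oa (chr17:34092179-34092378, plus strand): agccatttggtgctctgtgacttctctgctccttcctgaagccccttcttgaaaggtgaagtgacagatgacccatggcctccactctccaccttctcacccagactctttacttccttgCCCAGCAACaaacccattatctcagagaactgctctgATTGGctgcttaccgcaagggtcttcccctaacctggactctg

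In these 5 class II promoters the X box began between 80 and 127 bases before the TSS, the Y core began between 43 and 90 bases before it, and 25 to 28 bases lay between them. An exact X box with its Y core was present in 2 of the 8 class II genes matched (25.0%) and in 24 of 32851 RefSeq promoters (0.0731%). With 1 mismatch the counts were 5 of 8 (62.5%) and 411 of 32851 (1.25%). Searched over whole peaks with 1 mismatch, the pair was found in the promoter peaks of H2-DMb2, H2-DMb1, H2-Ob, H2-Ab1 and H2-Eb1, where its X box began within 53 bp of the peak centre. The share of all promoter peaks with such a pair was not computed. The exact pair was in 2 of 8 class II promoter peaks (25.0%) and in 17 of 13171 promoter peaks of the list (0.129%). The promoter peaks of H2-DMb1 and H2-DMb2 were 87.7% identical in sequence. Among class I genes, 0 of 23 had the exact pair and 2 of 23 (8.70%) had it with 1 mismatch. One was H2-M2, where the pair stood on the opposite strand of the gene, and the other was H2-M10.4, where the X box began 10 bases after the TSS. Neither gene had a promoter peak. Only the letters and spacing given above were searched, so these counts do not show that class I promoters lack a related pair. The printed H2-M2 letters are in gene direction, so the capitals are the reverse complement of the Y core and then of the X box.
H2-M2 (chr17:37483555-37483754, minus strand): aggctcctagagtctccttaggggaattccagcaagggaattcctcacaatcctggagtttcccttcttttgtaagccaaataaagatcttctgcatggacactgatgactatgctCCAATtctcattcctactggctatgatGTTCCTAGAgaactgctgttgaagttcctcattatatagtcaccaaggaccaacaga

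The classical class I promoters are shown for an element whose exact letters were found in no class II promoter searched. Capitals mark the kappa B type sequence GGGANTCCC and the Y cores, which stand on both strands. None of these matches overlap.
H2-K1 (chr17:34000334-34000533, minus strand): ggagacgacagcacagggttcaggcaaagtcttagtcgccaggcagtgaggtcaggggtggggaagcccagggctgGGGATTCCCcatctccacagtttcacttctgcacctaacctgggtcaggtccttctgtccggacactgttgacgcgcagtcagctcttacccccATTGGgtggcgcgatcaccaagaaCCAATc
H2-D1 (chr17:35262894-35263093, plus strand): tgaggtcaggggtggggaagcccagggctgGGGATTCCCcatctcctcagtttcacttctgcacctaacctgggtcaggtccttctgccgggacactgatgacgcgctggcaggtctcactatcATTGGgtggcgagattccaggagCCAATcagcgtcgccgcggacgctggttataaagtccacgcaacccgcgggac

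The kappa B type sequence was present in 4 of 23 class I promoters (17.4%), those of H2-K1, H2-D1, H2-Q6 and H2-Q7, in 0 of 8 class II promoters and in 0.767% of all promoters. When whole peaks were searched, it was present in 6 of 16 class I promoter peaks (37.5%), against 1.81% of the 13171 promoter peaks of the list. Several of these 6 peaks were near copies, so they are not separate instances. Those of H2-Q5, H2-Q8 and H2-Q7 were 97.6 to 99.1% identical in sequence, and those of H2-K1 and H2-D1 were 88.0% identical. The Y box was present in both classes, in 14 of 23 class I (60.9%) and 4 of 8 class II promoters (50%), against 4.1% of all promoters. It was also present in genes with no peak, among them H2-M1, H2-M9, H2-M11 and H2-M10.6. The class I genes with a Y box include several H2-M10 relatives and near copies, so they are not separate instances either. The promoter peaks of H2-T23 and H2-T-ps, for example, were 97.1% identical. Members were counted per gene and all promoters per promoter. An interferon response type sequence, GAAANNGAA, was found in H2-T22, H2-T23 and B2m, which is 3 of 35 member genes (8.57%) and close to the 8.56% of all promoters. In whole promoter peaks it was found in 9 of 31 promoter peaks of members (29.0%), against 10.5% of promoter peaks of the list. Among these 9 were the peaks of H2-T22 and H2-T10, which were 96.0% identical. A match gives the letters of a window and does not show that a factor bound there.

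Distances of peaks from the gene they are named for are those of the list, unless RefSeq is named. A peak was called a promoter peak when its centre lay within 500 bp of a TSS. By this rule 31 of the 121 member peaks (25.6%, Wilson 95% interval 18.7 to 34.1) were promoter peaks, against 15.6% of all peaks. The share was 31.4% for class I (16 of 51, interval 20.3 to 45) and 18.6% for class II (8 of 43, interval 9.74 to 32.6). The 2 intervals overlapped, and they cover counting error only. The smaller class II share went with more non-promoter peaks per gene, since class II genes held a median of 4.5 peaks per name and class I genes a median of 2, against a median of 3 per protein-coding gene with a peak. Of the 10 class II names, 5 had 5 or more peaks (50%), whereas 0 of 24 class I names did, and 31.8% of all 19040 names in the list did.

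**Figure D1:**
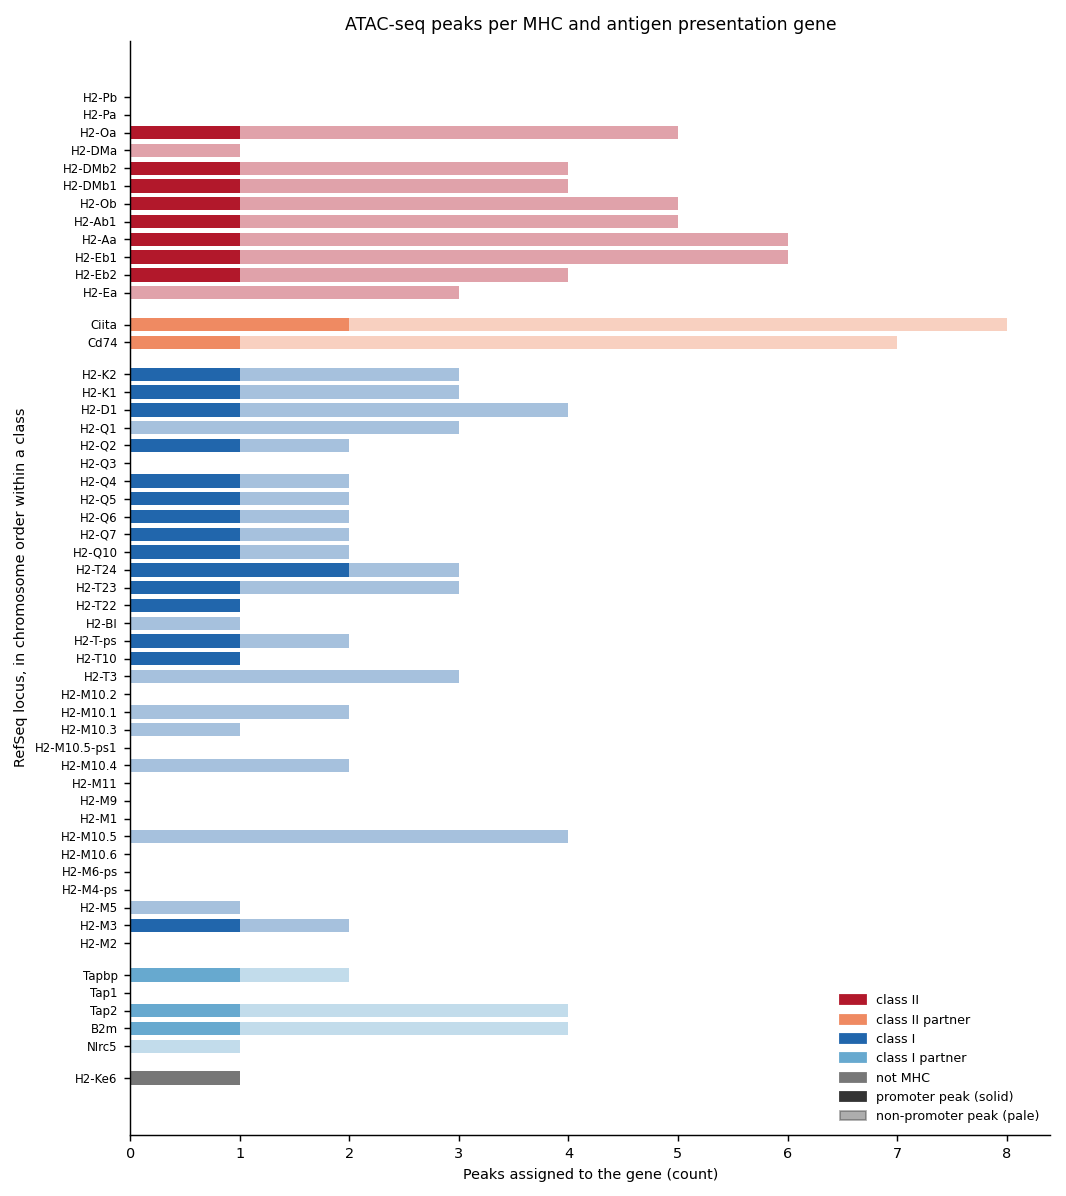
Number of peaks assigned to each RefSeq locus (horizontal axis, count), with solid bars for promoter peaks and pale bars for non-promoter peaks, coloured by class. Class II loci with a promoter peak held 4 to 6 peaks each, class I loci held 0 to 4, and Ciita held the most, 8. Peaks that the list names H2-L and H2-Q8 are drawn at H2-D1 and H2-Q6.

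RefSeq places 12 class II and 33 class I loci on the assembled chromosomes. By gene name, a promoter peak was present at 8 of the 12 class II loci (66.7%) and 15 of the 33 class I loci (45.5%), against 51.7% of 21774 protein-coding genes. The promoter peak named H2-Q8 was counted at H2-Q6. No such link was made for the background, where a gene under a name that RefSeq lacks counted as having no promoter peak. Among protein-coding loci alone the counts were 8 of 9 for class II (88.9%) and 12 of 25 for class I (48.0%). With the limit of 500 bp, the class I share was near the background and the class II share was above it, on few genes and without a test.

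The classical class II chains H2-A and H2-E, which present peptides to CD4 T cells, had 1 promoter peak per gene, H2-Ea excepted. For H2-Ab1, the beta chain of H2-A, it lay at chr17:34262938-34263436, with its centre 40 bp upstream of the TSS. For H2-Aa, the alpha chain, it lay at chr17:34287668-34288166, 146 bp upstream of the TSS that the list uses and 94 bp from that of RefSeq. For H2-Eb1, the beta chain of H2-E, it lay at chr17:34305576-34306074, 42 bp upstream, and that of its relative H2-Eb2 lay at chr17:34325344-34325842, 82 bp upstream. H2-Ea, the alpha chain of H2-E, is annotated as a transcribed pseudogene in this genome and is not made in C57BL/6 mice. It had 3 peaks, at -3138, -1651 and +3522 bp, and no promoter peak.

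H2-Aa and H2-Eb1 had the most non-promoter peaks among class II genes, with 5 each. Those of H2-Aa lay at -8455, -5981, -3988, +600 and +1708 bp from its TSS, the upstream ones intergenic and the downstream ones in introns. Those of H2-Eb1 lay at -6247, -4557, -913, +742 and +7745 bp. As these genes are transcribed away from each other, the 2 intergenic peaks of H2-Eb1 and the 3 of H2-Aa lie in the same stretch between the genes.

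The peptide exchange genes were less alike. H2-DMb1 had a promoter peak at chr17:34152886-34153384, 56 bp upstream of the TSS, and H2-DMb2 at chr17:34144872-34145370, 295 bp upstream of the TSS that the list uses. H2-DMa, the alpha chain that both beta chains pair with, had 1 peak by name, in an intron 2139 bp downstream. A peak at chr17:34122382-34122880 nevertheless lay 201 bp upstream of its RefSeq Select TSS and was assigned by the list to Brd2, a neighbouring bromodomain gene, whose TSS was 24 bp away. The H2-O chains, which restrain H2-DM, had promoter peaks at chr17:34238578-34239076 for H2-Ob, 78 bp upstream, and at chr17:34092479-34092977 for H2-Oa, 349 bp downstream. The H2-Oa peak began downstream of the TSS, so that it did not cover the X box printed above. H2-Pa and H2-Pb, class II pseudogenes, had 0 peaks.

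The non-promoter peaks of the other class II genes lay mostly within 10 kb of their TSSs. H2-Ab1 had them at -5418, -1442, +955 and +9090 bp, and H2-Eb2 at +896, +4295 and +5766 bp, all in introns. H2-Ob had them at -3778, +968, +10069 and +11164 bp. H2-DMb2 had them at -9882, -3754 and -2292 bp from the TSS that the list uses. RefSeq gives this gene 2 curated TSSs, and the peak named at -2292 bp had its centre 105 bp from the upstream one. The farthest were those of H2-DMb1, at +11281, +12078 and +16264 bp, and of H2-Oa, at -20095, -14609, -12628 and -1272 bp. The list annotated the upstream ones of H2-Ab1 and H2-Ob as intergenic.

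A second peak just inside the gene was common to the class II promoters. Of the 8 class II names with a promoter peak, 5 also had a peak 500 to 1000 bp downstream of the TSS (62.5%), all in introns: H2-Aa at +600, H2-Eb1 at +742, H2-Eb2 at +896, H2-Ab1 at +955 and H2-Ob at +968 bp. Among class I names it was 5 of 15 (33.3%): H2-M3 at +651, H2-Q4 at +687, H2-T-ps at +707, H2-T23 at +733 and H2-Q2 at +862 bp. Over the whole list it was 1025 of 12285 names with a promoter peak (8.34%). This distance was chosen after the positions were seen. The 5 class II downstream peaks were not copies of one another, with a highest identity of 64.8% over 10 pairs.

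**Figure D2:**
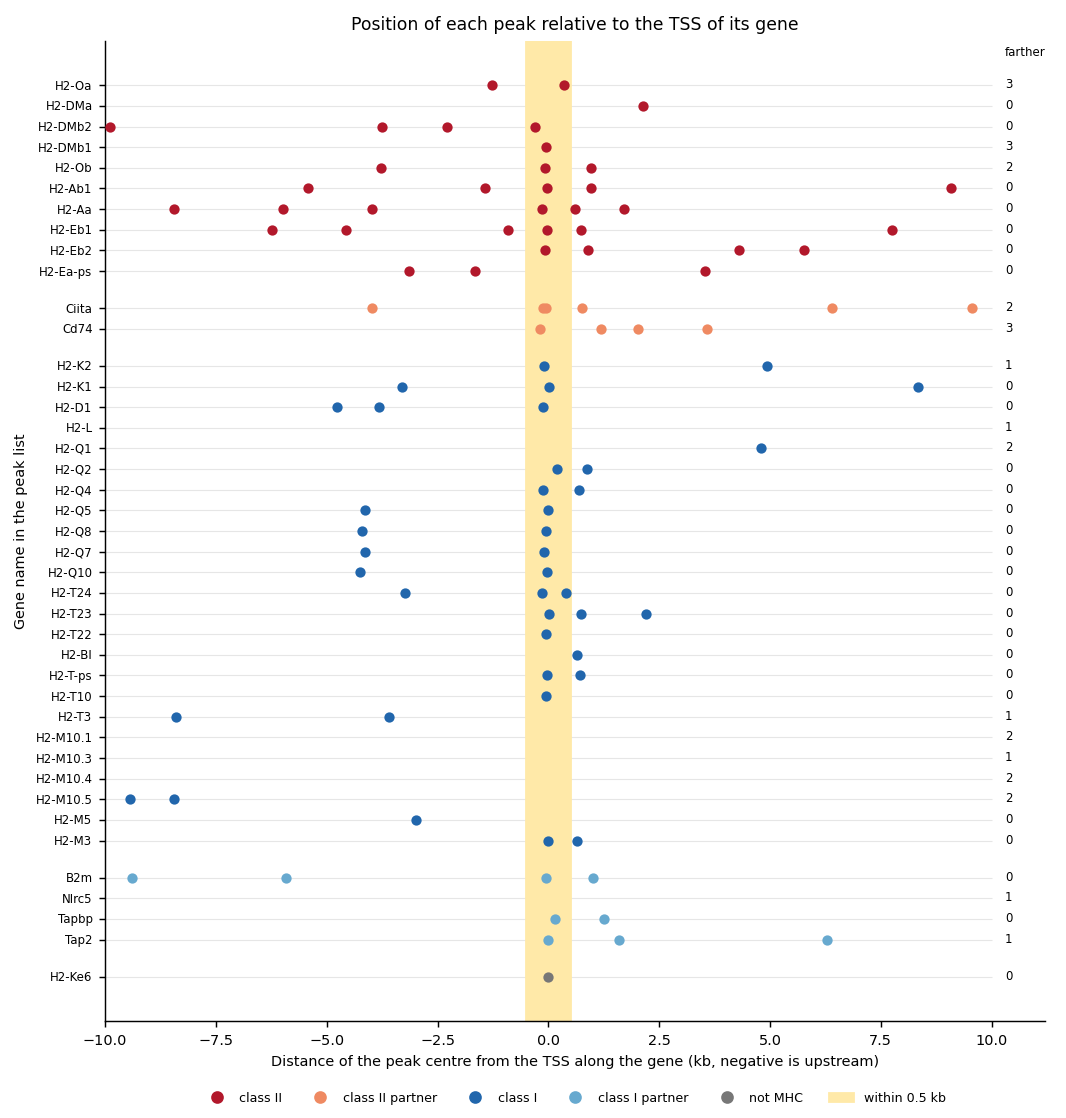
Distance of each peak centre from the TSS of its gene in kb (horizontal axis, negative is upstream), one row per gene name, with peaks beyond 10 kb counted at the right. The yellow band holds the promoter peaks, the column of points between -4242 and -4135 bp, belongs to H2-Q5, H2-Q8, H2-Q7 and H2-Q10, and the points just right of the band are the intragenic peaks of 5 class II genes and of class I genes.

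Ciita, the class II coactivator on chromosome 16, held 8 peaks by name in the list, the most of any member. RefSeq gives it 3 curated TSSs on the plus strand, at 10480072, 10488178 and 10489781, the alternative promoters known for dendritic cell, lymphoid and interferon-inducible use in that order. Promoter peaks lay at the second, chr16:10487814-10488312 with its centre 115 bp upstream, and at the last, chr16:10489479-10489977 with its centre 53 bp upstream. No peak lay within 500 bp of the first, and the nearest one was chr16:10475850-10476348, intergenic, 3973 bp upstream of it. Between the second TSS and the last was a further peak, chr16:10488694-10489192, 765 bp downstream of the second. The other 4, all in introns, lay at chr16:10495930-10496428, chr16:10499090-10499588, chr16:10508615-10509113 and chr16:10515982-10516480, from 6398 to 26450 bp downstream of the last TSS.

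Cd74, the invariant chain on chromosome 18, held 7 peaks. Its promoter peak lay at chr18:60803417-60803915, 183 bp upstream of the TSS. Intronic peaks followed at +1193, +2011 and +3577 bp, and intergenic ones lay at -10651, -11695 and -14428 bp.

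Classical class I genes present peptides to CD8 T cells. The H2-K1 promoter peak lay at chr17:34000070-34000568, 14 bp downstream of the TSS, and the H2-D1 promoter peak at chr17:35262714-35263212, 131 bp upstream. The list assigned 1 further peak, 11823 bp downstream, to H2-L, whose TSS in the list was 29 bp from that of H2-D1. The pseudogene H2-K2 had a promoter peak at chr17:33978633-33979131, 91 bp upstream. Non-promoter peaks lay at -3313 and +8327 bp for H2-K1, at -4764 and -3825 bp for H2-D1 and at +4933 and +10086 bp for H2-K2, and each of these except the nearer H2-K2 peak, at a transcription termination site, was intergenic.

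The Q genes, which include those of the non-classical Qa-2 molecules, had 15 peaks, 6 of them at promoters. These were chr17:35342278-35342776 for H2-Q2 (194 bp downstream), chr17:35379252-35379750 for H2-Q4 (116 bp upstream) and chr17:35393835-35394333 for H2-Q5 (15 bp upstream). The others were chr17:35424547-35425045 for the gene that the list names H2-Q8 and RefSeq H2-Q6 (51 bp upstream), chr17:35438808-35439306 for H2-Q7 (98 bp upstream) and chr17:35469801-35470299 for H2-Q10 (39 bp upstream), which is known as a secreted molecule of the liver. H2-Q1 had 3 peaks, all non-promoter, at -24581, -18638 and +4792 bp, and the pseudogene H2-Q3 had 0.

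Of the Q genes with a promoter peak, 4 repeated the same second position. H2-Q5, H2-Q7, H2-Q8 and H2-Q10 each had 1 other peak, intergenic, at -4135, -4144, -4207 and -4242 bp. Over their 6 pairs these peaks were 92.7 to 98% identical in sequence. The H2-K1 peak at -3313 bp, turned to the direction of its gene, was 92.1 to 93.9% identical to the same 4. The 26 pairs that involved an upstream peak of H2-D1, H2-T24 or H2-T3 were 57.3 to 65.6% identical. The longest run common to all 5 peaks was 28 bases, and that common to the 4 Q peaks was 34 bases. They are printed to identify the copied element, in gene direction and with no part marked.
The 5 peaks, H2-K1 at chr17:34003866-34003893 on the minus strand and H2-Q5, H2-Q8, H2-Q7 and H2-Q10 on the plus strand from 35389734, 35420413, 35434786 and 35465620: tttggggctttgcagctccttttagcac
The 4 Q peaks, on the plus strand from 35389832, 35420511, 35434884 and 35465718: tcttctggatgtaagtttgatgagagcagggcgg
Predicted genes lie beside some of these copies, as the nearest RefSeq TSS was 488 bp from the H2-K1 peak centre (Gm31082), 417 bp from that of H2-Q5 (Gm41576) and 325 bp from that of H2-Q8 (Gm32252).

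**Figure D3:**
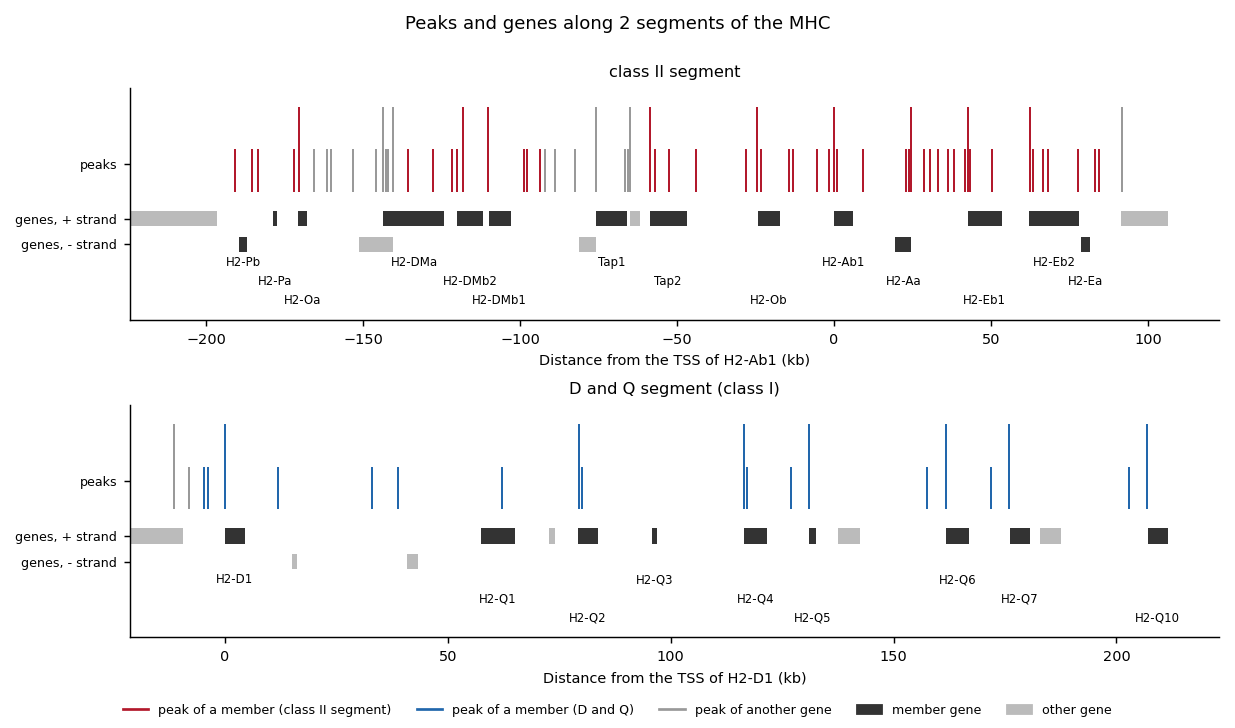
Peaks (vertical lines, tall for promoter peaks) above genes of both strands, by distance in kb from the TSS of H2-Ab1 in the class II segment and of H2-D1 in the D and Q segment. The class II segment is crowded, with 60 peaks in 271 kb, and the D and Q segment holds 16 in 211 kb, mostly as a promoter peak and 1 neighbour per gene.

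The T genes, whose non-classical products include Qa-1 (H2-T23), a ligand of NK cell receptors, and the gamma delta T cell ligands H2-T10 and H2-T22, had 13 peaks. In this genome H2-T10 is annotated as a transcribed pseudogene. Promoter peaks lay at chr17:36032437-36032935 for H2-T23 (15 bp downstream), chr17:36042552-36043050 for H2-T22 (59 bp upstream), chr17:36121246-36121744 for H2-T10 (51 bp upstream) and chr17:36111467-36111965 for H2-T-ps (40 bp upstream). H2-T24 had 2, chr17:36020467-36020965 (156 bp upstream) and chr17:36019914-36020412 (397 bp downstream). H2-T3, which encodes the thymus leukemia antigen, had 3 peaks and none at its promoter, at -3590, -8412 and -15469 bp. H2-Bl had 1, 644 bp downstream of its TSS. The remaining T gene peaks were intronic, at -3230 bp for H2-T24, at +733 and +2196 bp for H2-T23 and at +707 bp for H2-T-ps.

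The M genes stood apart from the other class I families. By name, only H2-M3, which presents formylated peptides, had a promoter peak, at chr17:37269975-37270473, 10 bp upstream. H2-M10.1, H2-M10.3, H2-M10.4, H2-M10.5 and H2-M5 had 2, 1, 2, 4 and 1 peaks, none at a promoter, and the H2-M5 peak, at -2984 bp, was the nearest of them to a TSS. H2-M10.2, H2-M10.6, H2-M1, H2-M2, H2-M9, H2-M11 and the pseudogenes H2-M10.5-ps1, H2-M4-ps and H2-M6-ps had 0 by name. A peak that the list names 2410137M14Rik nevertheless lay 63 bp from the 5′ end of H2-M6-ps. The M10 genes are known for expression in sensory neurons of the vomeronasal organ. Their 9 peaks were all intergenic and lay 8447 to 38299 bp from a TSS. Of these 9, 7 lay on long terminal repeats of endogenous retroviruses, 4 of them on the LTR41 family, whereas 6.58% of all peaks lay on a long terminal repeat and the family occurred 41 times in the list. H2-M10.5 had the most non-promoter peaks of any class I gene, 4, at -9429, -8447, +13643 and +16083 bp. Naming of these peaks followed from the nearest TSS, and 4 of them had a different gene or pseudogene nearest when all RefSeq TSSs were used.

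Of the class I partners, B2m on chromosome 2 had its promoter peak at chr2:122147394-122147892, 44 bp upstream of the TSS, and 3 intronic peaks at -9396, -5911 and +1008 bp, the upstream ones in an intron of another annotated transcript. Tap2 had its promoter peak at chr17:34204229-34204727, 1 bp from the TSS, with others at +1582, +6292 and +14832 bp. Tapbp had its promoter peak at chr17:33919367-33919865, 138 bp downstream, and another at +1250 bp. Tap1 had 0 peaks by name, but a peak at chr17:34187183-34187681 lay 124 bp upstream of its TSS. The list assigned that peak to Psmb9, an immunoproteasome subunit that is transcribed in the opposite direction, whose TSS was 102 bp from the peak centre. Nlrc5, the class I coactivator on chromosome 8, had 1 peak, chr8:94485617-94486115, in an intron 13103 bp downstream of its RefSeq Select TSS, and none at that TSS. Ciita and Nlrc5, the coactivators of the 2 classes, therefore differed as 8 peaks against 1 by name. H2-Ke6 had 1 peak, at its promoter, chr17:34027823-34028321.

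Peaks in the MHC were dense in the class II segment. There were 60 peaks between H2-Pb and H2-Ea, or 22.1 per 100 kb, against 3.96 on chromosome 17 and 3.09 over the genome. Between H2-K2 and H2-K1 the density was 19.3 per 100 kb, from only 5 peaks in 26.0 kb. It was 7.57 from H2-D1 to H2-Q10, 9.11 from H2-T24 to H2-T3 and 3.50 from H2-M10.2 to H2-M2. With promoter peaks left out the class II segment held 17.3 per 100 kb and the others 7.70, 4.73, 5.36 and 2.84, against 3.26 on the chromosome. All peaks of a segment were counted, those of neighbouring genes included, and 44 of the 60 in the class II segment belonged to members. Non-promoter peaks lay close to their genes, with a median distance of 4295 bp for class II and 4792 bp for class I, against 22262 bp over the whole list.

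The base composition of the promoter peaks differed too. The median GC content was 51.0% for class II (46.5 to 54.3%, n = 8) and 57.5% for class I (46.5 to 67.7%, n = 16), against 63.3% over all promoter peaks. Class I was split by family. The H2-K, H2-D and H2-Q promoter peaks had 56.9 to 67.7%. Those of the T genes and H2-M3 had 46.5 to 53.5%, within the class II range. For non-promoter peaks the median was 46.9% for class II and 51.1% for class I, against 47.7%.

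Some class I genes are near copies of each other, and the authors left out reads that aligned to several places. The share of 100-base sequences found once in the genome was therefore computed within 500 bp of each TSS. It was at least 99.0% at all 12 class II loci and at least 80% at 30 of 33 class I loci. The exceptions were H2-Q5 (42%), H2-Q6 (46.0%) and H2-Q7 (79.7%), and all 3 had a promoter peak. The 18 class I loci without a promoter peak by name were 96.1 to 100% unique. With 50-base sequences, 8 of the 15 class I loci with a promoter peak and all 18 without one were at least 80% unique. The part of alignment in which genes have a peak was not tested.

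**Figure D4:**
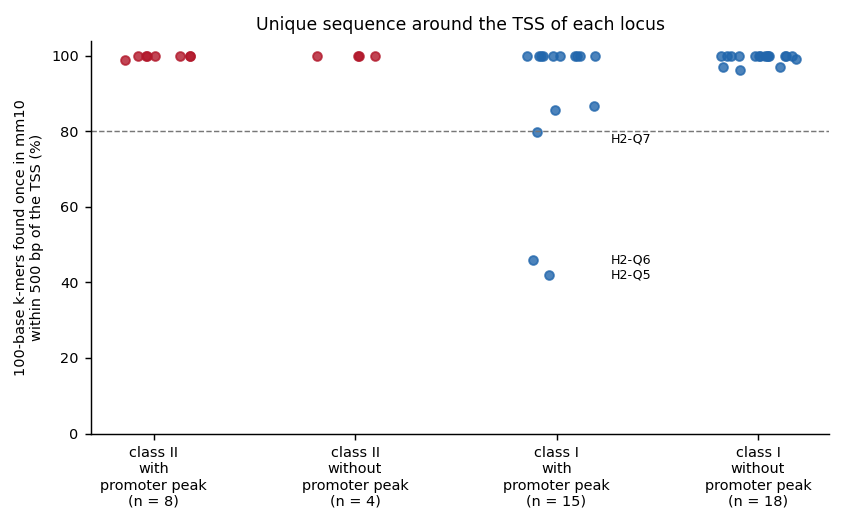
Share of 100-base sequences within 500 bp of the TSS that occur once in mm10 (vertical axis, percent), one point per RefSeq locus, by class and by presence of a promoter peak, with a dashed line at 80%. Low points, H2-Q5, H2-Q6 and H2-Q7, lie among class I loci with a promoter peak, and the 18 class I loci without one lie at 96.1% or above.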

How the data were processed

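Per the labels and the study's methods, the authors aligned ATAC-seq reads of 12 samples to mm10 with the ENCODE pipeline, without multimapping reads, took the reproducible peaks of each cell type, merged them with chromVAR and annotated them with HOMER (4.10.2 in the submitters' processing notes). The deposited table gives positions and distances to the TSS in bp, without normalization, and a peak score that the authors left at 0, which was not used. It holds 0 columns of values per sample, so depth per sample is unknown and no test was run. Members, classes and lists were chosen with earlier results of these data known. A gene of the lists is not reported here. The rule for named genes was to name every member, with full positions for promoter peaks and distances for the genes richest in non-promoter peaks, and to print promoters with an X box followed by a Y core and classical class I promoters.

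Loci, TSSs and sequences came from RefSeq on GRCm38.p6, whose build matches mm10. Names that RefSeq lacks were linked to the nearest TSS, within 29 bp (H2-L, H2-Q8). Intervals are 95% Wilson intervals. Identity was taken over aligned bases of global alignments (Biopython 1.88). The k-mer count and the motif search were tested on simulated data. Promoters of Cd74, Ciita, H2-Ab1, H2-Bl, H2-Ea, H2-K2, H2-M10.5-ps1, H2-M4-ps, H2-M6-ps, H2-Pa, H2-Pb, H2-Q1, H2-Q3, H2-Q5, H2-T10, H2-T24, Nlrc5 and Tap2 were not matched. Alternatives concerned the promoter limit, gene assignment, gene set, k-mer length, motif mismatches, sequence searched and peaks counted. Python 3.11.15, pandas 2.3.3, numpy 2.4.6, scipy 1.17.1 and matplotlib 3.10.9 were used.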

Additional observations from a re-analysis of the deposited data

How the results depend on the processing

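Of 43 alternative values, 28 stayed within the error or within 1.5 times the reported value and 15 moved. For shares the error was the Wilson interval, which treats genes as separate instances although some are near copies. The interval was wide where genes were few. For 12 class II loci it ran from 39.1 to 86.2%, so a fall from 66.7% to 41.7% counted as within the error. The count of 28 is therefore not a measure of stability. Class II promoter peaks, 8 at 500 bp, numbered 5 with a limit of 100 bp and 14 with 1000 bp, which adds the intronic peaks just inside 5 genes and the H2-Eb1 peak at -913 bp. The share of class II loci with a promoter peak, 66.7%, was 88.9% without pseudogenes and non-coding entries. It was 100% for H2-Aa, H2-Ab1, H2-Eb1 and H2-Eb2 (4 of 4, with H2-Ea, which has no promoter peak, not in this set). For the class I genes H2-K1 and H2-D1 the share was 100% (2 of 2). With a limit of 100 bp it fell to 41.7% of class II loci (5 of 12) and 33.3% of class I loci (11 of 33). The background share at that limit was not computed. With 1 mismatch allowed, class II promoters with a match were 87.5% for the X box, 62.5% for the X box with a Y core and 100% for the Y box, and class I promoters were 87.0% for the Y box, 39.1% for the kappa B type and 69.6% for the interferon response type. Over all promoters these were 51.3% for the X box, 1.3% for the pair, 24.6% for the Y box, 14.2% for the kappa B type and 65.5% for the interferon type. The kappa B type was in 37.5% of class I promoter peaks. Without promoter peaks the densities per 100 kb were 7.70 in the K segment, 4.73 in D and Q and 5.36 in T. Assigned by the nearest RefSeq TSS, members held 100 peaks in place of 121. Class I held 38 in place of 51, and class II held 41 in place of 43. The Ciita peaks at +19083 and +26450 bp then went to LOC115488669. The Cd74 peaks at -14428, -11695 and -10651 bp went to Gm8731, and the 3 H2-T3 peaks went to Gm4246. No paired analysis was possible because no result comes from a test. A merged list without reads limits every count to presence in at least 1 cell type, and the absence of a peak does not show closed chromatin.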

Other observations

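Genes of the same pathways outside the naming rule mostly had a promoter peak too. Of 10 genes for peptide supply and loading, 9 had a promoter peak: the immunoproteasome subunits Psmb8, Psmb9 and Psmb10, the proteasome activator Psme1, the trimming peptidase Erap1, the chaperones Calr, Canx and Pdia3, and Tapbpl, a relative of tapasin. Psme2, the partner of Psme1, had 0 peaks by name, and Erap1 had the most, 6. Of 6 genes for class II processing, 3 had a promoter peak, the proteases Ctss, Ctsl and Lgmn, and Lgmn held 17 peaks, more than any member of the MHC. Ifi30, a lysosomal thiol reductase, had 3 peaks, the nearest 711 bp from its TSS, and March1 and March8 had 0 by name. The background was 51.7% of protein-coding genes with a promoter peak.

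Of 8 factors known to act at these promoters, 7 had a promoter peak: the RFX subunits Rfx5 and Rfxap, the NF-Y subunits Nfya, Nfyb and Nfyc, Creb1 and Irf1. Creb1 held 8 peaks and Irf1 held 7, and Rfxank, the remaining RFX subunit, had 0 by name. Among 7 class I-like genes outside the complex, 5 had a promoter peak, namely Mr1, Cd1d1, Cd1d2, Fcgrt and Hfe. Procr, the endothelial protein C receptor used as an HSC surface marker, had 2 peaks, the nearest 4708 bp from its TSS, and Azgp1 had 0. A count of 0 by name does not show that a promoter lacks a peak, as the Tap1 peak named for Psmb9 shows.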
